A study of Mus musculus with 4 samples.

Results

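The genes described here encode the histocompatibility molecules of the mouse H2 complex and the proteins that load them with peptide. They are the rows of the deposited count table whose symbol starts with H2- or is B2m, Tap1, Tap2, Tapbp, Tapbpl, Nlrc5, Ciita, Cd74, Cd1d1 or Erap1. That rule took 45 of the 22063 rows and used no measured value. Of these, 34 had at least 1 count, 21 passed the filter on low counts and 11 had 0 counts in all 4 libraries. The cells were C22, an immortalized wild type mouse line labelled as Club cells (secretory cells of the airway lining), kept at 37 °C with 2% serum. The 2 NE libraries came from cells given norepinephrine (NE, the transmitter of sympathetic nerves) at 10 µM for 3 h. The other 2 came from cells that received vehicle over the same 3 h. The series asks how airway epithelial cells respond to this transmitter.

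Class I molecules consist of a heavy chain and the light chain beta-2-microglobulin. They show peptides from inside the cell to CD8 T cells and are made by nearly all nucleated cells. The peptides are cut by the proteasome, carried into the endoplasmic reticulum by the TAP transporter, trimmed there by Erap1 and fitted into the heavy chain with the help of tapasin. Class II molecules show peptides from outside the cell to CD4 T cells, mainly on professional antigen-presenting cells, and on airway epithelium after exposure to interferon-gamma. Nlrc5 is the transactivator of class I genes and Ciita that of class II genes. Both act through a promoter module of S, X and Y boxes that binds the factors RFX, CREB/ATF and NF-Y. As background that the labels do not give, C22 was derived from a mouse in which an interferon-responsive H-2K promoter drives a temperature-sensitive large T antigen. The labels do not name the growth supplements of the medium.

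Library totals ranged from 14783176 to 18491334 counts, so that 3 counts, the limit a count of 0 allows, stand for 0.162 to 0.203 CPM (read counts scaled to library size) in a library. These limits cover counting error only. No library pair agreed within sampling noise, with a chi-square per degree of freedom of at least 4.63, and each library was counted as a sample. That value was 4.63 for the NE pair and 6.69 for the vehicle pair. Across treatments it ran from 6.30 to 13.9. The second vehicle library was thus closer to the first NE library (6.30) than to the other vehicle library. Separate cultures are not named in the labels, and p-values here reflect the spread of these samples alone, which may be technical. Of 9 Club cell markers, 4 had 0 counts and the defining gene Scgb1a1 had 2 counts over all libraries, so the labelled cell type is not seen in its mature transcripts. Aldh1a1, which Club cells also express, was present at 958 and 767 CPM in vehicle and 772 and 789 CPM in NE. Among 20 leukocyte markers 8 had 0 counts, and Ptprc and Cd3e, which define leukocytes and T cells, had 1 count each. The summed CPM of that list was 22.2 and 41.0 in vehicle and 40.2 and 45.5 in NE, most of it from Cd14 and Csf1r. Its part in the results was not tested.

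Promoters are shown first, so that those of H2-Q6 and its sister genes can be read side by side. A part of these letters in the changes after NE was not tested. The 6 sequences are the 250 bases before the first listed start of each gene, 5′ to 3′, from RefSeq on GRCm38.p6. Nlrc5, H2-T24, Tap2 and Tapbpl have no entry in that table, and 17 of the 21 tested members have one. Capitals mark letters matched on either strand by 4 motifs that do not overlap in these windows. They are the enhancer A motif GGGGATTCCCC, to which NF-kappaB binds, the core TGACG of the X2 site, the Y box CCAAT, and an interferon-response-like motif of GAAA, 2 free bases and GAAA.
H2-K1, chr17:34000348-34000597, minus strand: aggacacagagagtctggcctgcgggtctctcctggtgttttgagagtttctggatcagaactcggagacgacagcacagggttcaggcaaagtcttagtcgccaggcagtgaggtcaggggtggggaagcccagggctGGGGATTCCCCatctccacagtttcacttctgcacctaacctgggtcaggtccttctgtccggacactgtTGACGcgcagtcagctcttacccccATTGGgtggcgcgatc
H2-D1, chr17:35262844-35263093, plus strand: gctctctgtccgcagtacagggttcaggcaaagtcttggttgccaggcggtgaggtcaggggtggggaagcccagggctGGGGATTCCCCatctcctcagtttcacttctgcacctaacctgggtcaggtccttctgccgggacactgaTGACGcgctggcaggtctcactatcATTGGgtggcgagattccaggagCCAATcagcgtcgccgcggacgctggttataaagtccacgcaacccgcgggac
H2-Q6, chr17:35424600-35424849, plus strand: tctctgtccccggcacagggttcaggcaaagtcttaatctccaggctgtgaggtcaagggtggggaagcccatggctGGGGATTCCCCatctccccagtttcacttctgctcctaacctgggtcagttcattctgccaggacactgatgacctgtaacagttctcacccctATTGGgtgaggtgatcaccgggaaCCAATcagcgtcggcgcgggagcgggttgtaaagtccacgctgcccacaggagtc
H2-Q7, chr17:35438905-35439154, plus strand: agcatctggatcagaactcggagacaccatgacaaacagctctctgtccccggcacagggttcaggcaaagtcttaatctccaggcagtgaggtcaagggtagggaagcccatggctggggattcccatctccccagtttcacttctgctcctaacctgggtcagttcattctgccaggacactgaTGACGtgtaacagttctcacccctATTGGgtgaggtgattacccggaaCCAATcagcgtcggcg
H2-Q4, chr17:35379367-35379616, plus strand: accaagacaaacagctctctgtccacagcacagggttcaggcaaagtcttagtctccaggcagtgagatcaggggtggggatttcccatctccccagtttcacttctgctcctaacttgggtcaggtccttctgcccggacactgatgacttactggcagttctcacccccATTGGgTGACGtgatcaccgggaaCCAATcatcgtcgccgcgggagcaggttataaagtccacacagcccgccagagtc
B2m, chr2:122147437-122147686, plus strand: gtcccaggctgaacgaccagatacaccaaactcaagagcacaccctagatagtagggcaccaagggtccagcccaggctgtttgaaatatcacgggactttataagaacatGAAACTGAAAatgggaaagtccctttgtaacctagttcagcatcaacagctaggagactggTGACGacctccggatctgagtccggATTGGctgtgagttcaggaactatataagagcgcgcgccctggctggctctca

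Of all 32851 promoter windows of this length, 0.0304% held GGGGATTCCCC, 17.8% TGACG, 33.8% CCAAT and 2.98% the interferon-response-like motif. Enhancer A was matched in 3 of the 17 windows of tested members, those of H2-K1, H2-D1 and H2-Q6. The X2 core was matched in 8 of the 17 and the Y box in 15. The interferon-response-like motif was matched in 3, those of B2m, H2-T22 and H2-T23. The printed windows of H2-K1, H2-D1, H2-Q4, H2-Q6 and H2-Q7 each hold TTTCACTTCT, which is close to that motif but is not marked by it. The site in front of the first Y box reads TGACGCG in the classical genes H2-K1 and H2-D1. The same site reads TGACGTG in H2-Q7 but TGACCTG in H2-Q6, while H2-Q4 reads TGACTTA there. The X2 core match of H2-Q4 lies farther downstream, at -73, after its upstream Y box. The longer TGACGCG was found in 1.56% of all windows. A match in these letters is a description and not a binding site, and a lack of one says only that these letters are not in this window. The letters are those of the reference genome, and the sequence of the C22 cells themselves was not read.

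**Figure D1:**
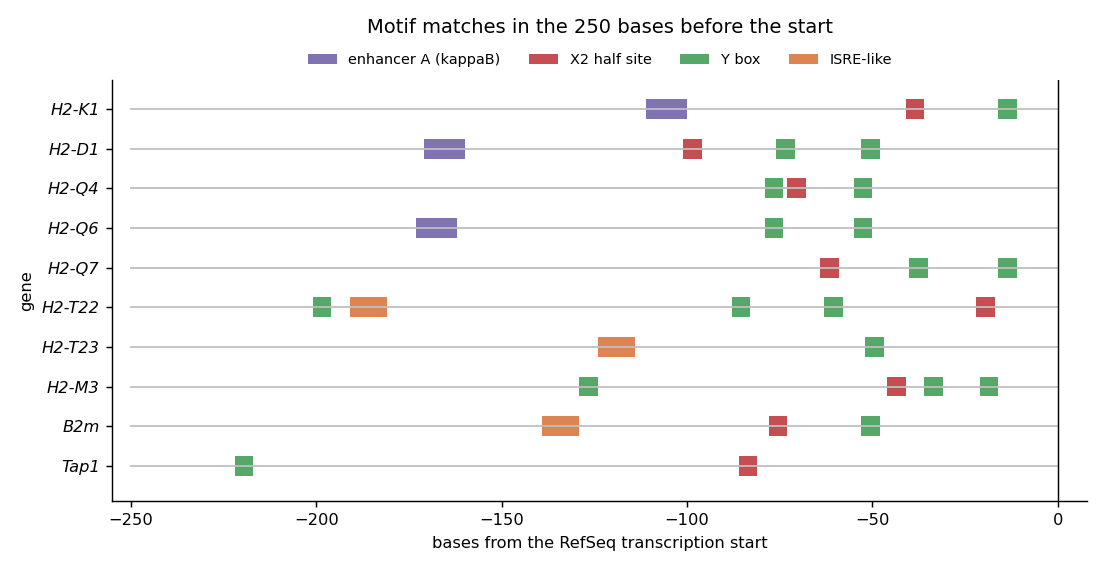
Motif matches in the 250 bases before the RefSeq start of 10 member genes, with position in bases from the start on the horizontal axis and 1 gene per line. Coloured blocks are matches on either strand. H2-Q6 has the enhancer A block of H2-K1 and H2-D1 and its Y boxes at -79 and -55, but no match to the X2 core. H2-T23, also drawn here, has no X2 core match either, and the core was matched in 8 of the 17 windows of tested members.

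Class I light and heavy chains made up most of the counts of these genes. B2m, which encodes beta-2-microglobulin, was the most abundant per length, with 1018.5 CPM per kilobase of annotated exon in vehicle and 1094 in NE. The classical heavy chain genes followed, H2-K1 at 307 and 300.5 and H2-D1 at 271 and 277 CPM per kilobase in vehicle and NE. Tapbp, which encodes tapasin, came next at 129 and 124. H2-Q4, H2-T22 and Tap1 lay between 43.0 and 68.2 in either group. H2-Q7, H2-Q6 and Tap2 lay between 14.7 and 22.1, and Erap1, H2-T23 and H2-M3 between 9.18 and 12.4. Nlrc5, the transactivator, was low, at 4.69 in vehicle and 3.18 in NE. The vehicle levels of H2-Q4 and H2-T22 per kilobase (68.1 and 67.4) and those of H2-Q7 and H2-Q6 (22.1 and 21.5) did not differ beyond the spread of the libraries.

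**Figure D2:**
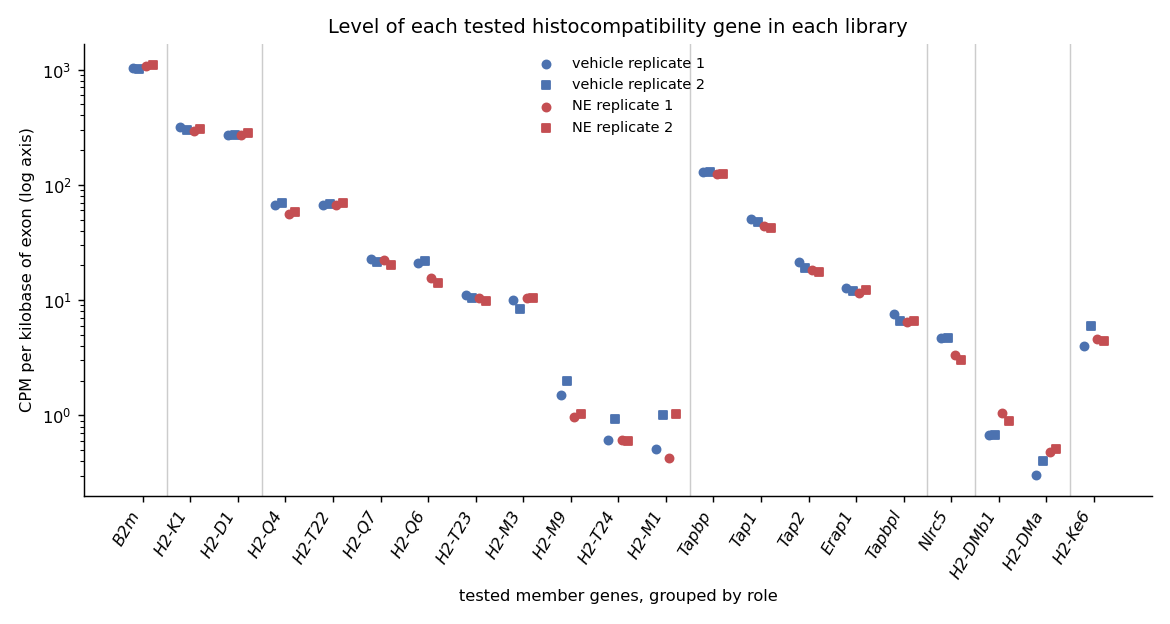
Level of the 21 tested genes in each of the 4 libraries, in CPM per kilobase of exon on a log axis, grouped by role. Circles are replicate 1 and squares replicate 2; the libraries of Nlrc5 and H2-Q6 split by treatment, while those of H2-K1 and H2-D1 lie together near 300.

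After NE, 2 of the 21 tested genes fell and 0 rose. The genes that fell were Nlrc5 and the non-classical class I gene H2-Q6, to 0.677 and 0.686 of their vehicle levels in the fit. Over all 11419 tested genes, 1.23% were called lower and 0.342% higher by edgeR, 1.57% in all. DESeq2 called 2 members lower and 0 higher, against 0.447% and 0.21% (0.657% in all), and gave no adjusted p for 9 members. Limma voom called 2 lower and 0 higher, against 1.44% and 0.438% (1.88% in all). At an unadjusted p under 0.05, edgeR had 5 of the 21, each with lower values in NE, against 17.3% of all tested genes. DESeq2 and limma voom had 4 each. For unadjusted p the share over all genes is given for edgeR alone, here and for the lists below. The unadjusted counts of the other tools therefore cannot be set against all genes. The groups did not overlap for 12 of the 21, against 49.2% of all tested genes. NE lay below vehicle without overlap in 7 of the 21, against 24.6% of all tested genes. The median log2 fold change of the 21 was -0.06, with 15 negative and 6 positive, against -0.000115 and 50% negative over all genes. The members that passed the filter are not all members, and these counts are no test of the family.

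**Figure D3:**
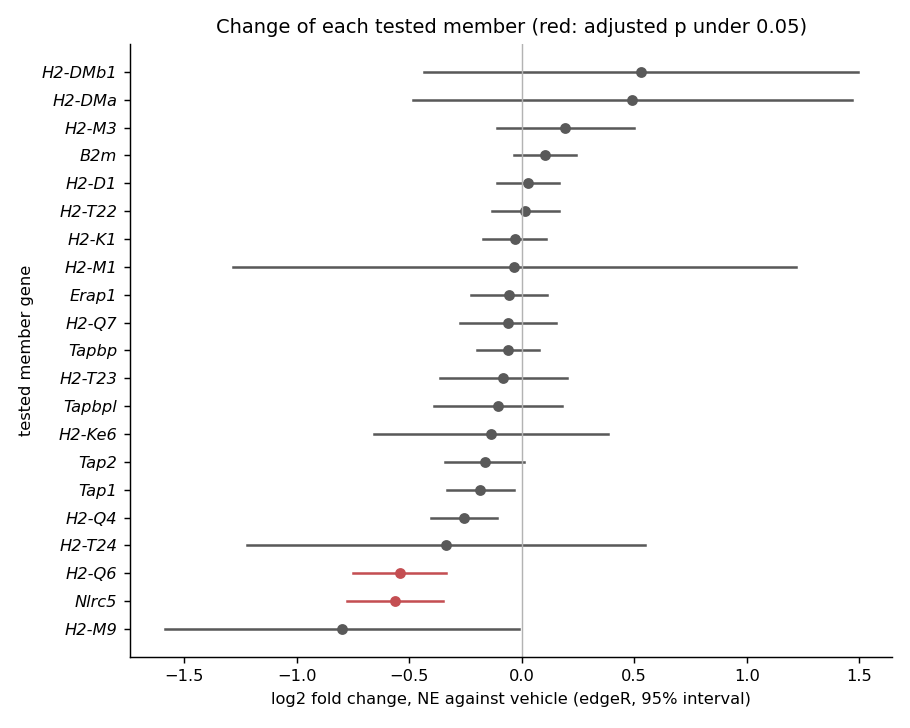
Log2 fold change of NE against vehicle for each tested gene (points) with its 95% interval (bars), from edgeR, sorted by size. The intervals of Nlrc5 (-0.78 to -0.35) and H2-Q6 (-0.75 to -0.34), in red, lie wholly below 0, while those of H2-K1 and H2-D1 span it.

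Nlrc5 (ENSMUSG00000074151, chromosome 8) had 569 and 565 counts in vehicle, and 423 and 449 with NE. In CPM these were 38.2 and 37.9 in vehicle and 27.1 and 24.5 in NE. Every NE library lay below every vehicle library, and the vehicle libraries were nearly equal. The log2 fold change was -0.56 ± 0.10 (SE; edgeR adjusted p = 0.0148), a change of -32.3% with a 95% interval from -41.6% to -21.5%. DESeq2 gave an adjusted p of 0.0224 and limma voom 0.0143. The call was lost without either NE library, settings in which fewer genes were called over all genes as well. Without the first the log2 fold change was -0.63 and without the second -0.49, with the lone NE library assumed to vary like the vehicle libraries.

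Fold changes fell with exon length over all genes, and the longest coding transcript of Nlrc5 has 7578 nt. Genes of the lowest length decile had a median log2 fold change of 0.11 and those of the highest decile -0.09. With the trend removed Nlrc5 stood at -0.49 ± 0.09 (edgeR adjusted p = 0.0613), no longer past the threshold. H2-Q6 kept its call in that setting, at -0.58 ± 0.09 (adjusted p = 0.0393). Only 43 bases of Nlrc5 exons, 0.53%, overlap another annotated gene, and 0 of its windows of 100 bases recur in another gene's transcripts.

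H2-Q6 (ENSMUSG00000073409, chromosome 17) encodes a heavy chain of Qa-2, a non-classical class I molecule held in the membrane by a lipid anchor. It had 652 and 680 counts in vehicle and 502 and 536 in NE. In CPM these were 43.8 and 45.6 in vehicle and 32.2 and 29.3 in NE. The groups did not overlap. The log2 fold change was -0.54 ± 0.10 (SE; edgeR adjusted p = 0.0148), a change of -31.4% with a 95% interval from -40.5% to -20.9%. DESeq2 gave an adjusted p of 0.0165 and limma voom 0.0126. As for Nlrc5, the call was lost without either NE library, where fewer genes were called over all genes as well. Without the first the log2 fold change was -0.61, and without the second -0.48.

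H2-Q7, the neighbouring gene and the other heavy chain of Qa-2 in this table, was found at 35.0 and 33.0 CPM in vehicle and 34.5 and 30.7 CPM in NE. Its groups overlapped, and the log2 fold change was -0.06 ± 0.10 (95% interval -0.28 to 0.15, edgeR adjusted p = 0.806). The ratio of H2-Q6 to H2-Q7 counts was 1.25 and 1.38 in vehicle, and 0.931 and 0.954 with NE. These are ratios of counts, not corrected for the different exon lengths of the genes. That difference gave an exact two-sided permutation p of 0.333, the smallest that 2 libraries against 2 allow. The transcripts of these genes are partly identical: of the windows of 100 bases, 8.36% of those in H2-Q6 recur in H2-Q7, and 11.7% of those in H2-Q7 recur in H2-Q6. How the counting assigned such reads is not given in the sources used here, so the values of the single genes are uncertain. Summed over both, a check chosen after the values were seen, they had 1172 and 1172 counts in vehicle and 1041 and 1098 in NE. The summed log2 fold change was -0.31 ± 0.08 (edgeR adjusted p = 0.0558), and the call was lost.

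H2-Q4, a non-classical heavy chain gene of the same cluster, stood at 121 and 124 CPM in vehicle and 99.8 and 104 CPM in NE. The groups did not overlap. Its log2 fold change of -0.26 ± 0.07 (95% interval -0.41 to -0.11) did not pass the threshold (edgeR adjusted p = 0.0739). Exons of H2-Q4 overlap those of the predicted gene Gm11131 on the opposite strand over 21.03% of their length.

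**Figure D4:**
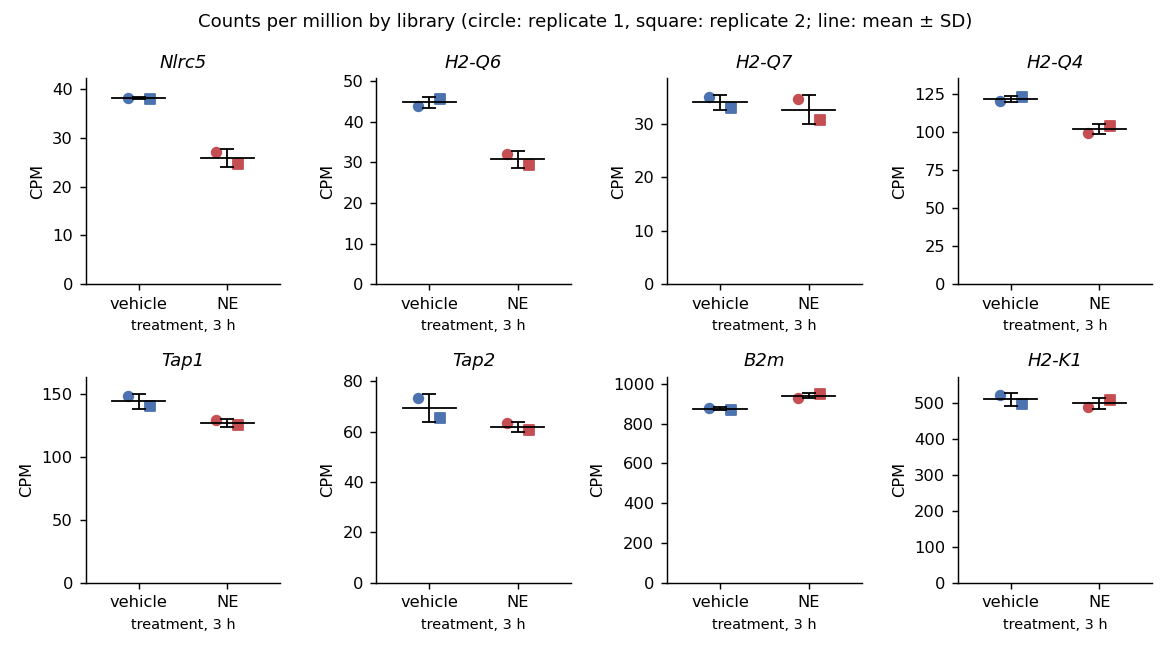
CPM in each library for 8 member genes, vehicle in blue and NE in red, with circles for replicate 1, squares for replicate 2 and lines for the mean ± SD of 2 libraries. The NE libraries of Nlrc5 (27.1 and 24.5) and H2-Q6 (32.2 and 29.3) lie below their vehicle libraries, and those of H2-Q7 and H2-K1 overlap them.

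The classical class I genes, which present most peptides to CD8 T cells, were not called. H2-K1 was found at 522 and 496 CPM in vehicle and 487 and 508 in NE, and the groups overlapped. Its log2 fold change was -0.03 ± 0.07, with a 95% interval that runs from -11.3% to 7.79% of the vehicle level (edgeR adjusted p = 0.850). H2-D1 was found at 568 and 572 CPM in vehicle and 573 and 590 in NE. Its log2 fold change was 0.03 ± 0.07 (95% interval -0.11 to 0.17, adjusted p = 0.863), and its sign turned with the length trend removed. For either gene a fall as large as that of Nlrc5 lies outside the interval.

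B2m, whose product pairs with the class I heavy chains, stood at 881 and 871 CPM in vehicle and 931 and 951 CPM in NE. The NE libraries were higher, but the log2 fold change of 0.10 ± 0.07 did not pass (95% interval -0.04 to 0.24, edgeR adjusted p = 0.444). With the length trend removed it was -0.02, and the coding transcript of B2m, at 860 nt, is short.

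Summed over the 25 class I heavy chain rows, these genes took 0.145% and 0.144% of all counts in vehicle and 0.138% and 0.141% in NE. H2-K1 and H2-D1 gave 75.2% ± 0.347 of that sum in vehicle and 77.0% ± 0.279 in NE (SD, n = 2 each). The other heavy chain rows summed to 357 ± 1.68 CPM in vehicle and 322 ± 2.87 CPM in NE, and the classical pair to 1079 ± 14.96 and 1079 ± 26.6 CPM. The largest differences in that sum were those of H2-Q4 and H2-Q6. H2-T22, which is seen by gamma-delta T cells, was found at 121 and 122 CPM in vehicle and 120.0 and 126 in NE. Its log2 fold change was 0.02 ± 0.07 (95% interval -0.13 to 0.16, edgeR adjusted p = 0.933), with a sign that turned under total count scaling and with the length trend removed. Of its windows of 100 bases 9.81% recur in its sister gene H2-T10.

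The remaining non-classical genes were low. H2-T23 encodes Qa-1, a ligand of the inhibitory NK receptor CD94/NKG2A, and was found at 16.3 and 15.2 CPM in vehicle and 15.3 and 14.6 in NE (log2 fold change -0.08 ± 0.13, edgeR adjusted p = 0.80). H2-M3, which presents N-formylated peptides of bacteria and mitochondria, was found at 14.4 and 12.0 CPM in vehicle and 15.1 and 15.1 in NE (0.19 ± 0.14, adjusted p = 0.520). H2-M9 had 32 and 43 counts in vehicle and 22 and 27 in NE. Its groups did not overlap, and its log2 fold change of -0.80 ± 0.37 was the most negative of all tested members but was not called (95% interval -1.59 to -0.01, adjusted p = 0.280). H2-T24 had between 20 and 30 counts per library (-0.34 ± 0.42, adjusted p = 0.731) and H2-M1 between 7 and 20 (-0.03 ± 0.59, adjusted p = 0.988), with overlapping groups.

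Genes of peptide transport and loading had negative log2 fold changes in 5 of 5 cases, and 0 of the 5 passed in edgeR, DESeq2 or limma voom. Each of these had 1 of the 5 at an unadjusted p under 0.05. For 1 of the 5, Tapbpl, DESeq2 gave no adjusted p. Tap1, a chain of the peptide transporter, was found at 148 and 140 CPM in vehicle and 129 and 125 CPM in NE, without overlap of the groups. Its log2 fold change was -0.18 ± 0.07 (95% interval -0.33 to -0.04, edgeR adjusted p = 0.183). Tap2, the partner chain, was found at 73.4 and 65.6 CPM in vehicle and 63.4 and 60.6 in NE (-0.17 ± 0.08, adjusted p = 0.318). The count ratio of Tap1 to Tap2 was 2.02 and 2.14 in vehicle and 2.04 and 2.06 in NE, with overlapping groups.

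Tapbp, which bridges the transporter and the heavy chain, stood at 378 and 371 CPM in vehicle and 360 and 357 in NE (log2 fold change -0.06 ± 0.06, edgeR adjusted p = 0.666). Tapbpl, whose product edits peptides on class I, was found at 17.7 and 15.4 CPM in vehicle and 15.1 and 15.6 in NE (-0.11 ± 0.13, adjusted p = 0.737). The trimming peptidase gene Erap1 was found at 72.3 and 67.7 CPM in vehicle and 65.0 and 69.4 in NE (-0.06 ± 0.08, adjusted p = 0.762). Of these, Tapbpl and Erap1 had overlapping groups. Exons of a gene on the opposite strand overlap 7.18% of Tap1 (Psmb9), 15.1% of Tap2 (Gm15821), 23.5% of Tapbp (Gm19412) and 14.8% of Erap1 (Cast), so those values are uncertain.

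Class II transcripts were near the floor. The 10 class II and chaperone rows together held 40 and 39 counts in vehicle and 57 and 50 in NE, against 21243 or more for class I heavy chains in each library. The class II transactivator gene Ciita had 1 count in all, H2-Aa 2, H2-Ab1 2 and H2-DMb2 1. H2-Eb1 had 6 and 7 counts in vehicle and 5 and 0 in NE, and the invariant chain gene Cd74 had 8 and 1 in vehicle and 7 and 0 in NE. H2-Eb2, H2-Oa and H2-Ob had 0 counts, which allows up to 0.0471 CPM over the 4 libraries.

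Only the peptide editor H2-DM passed the filter among class II genes. H2-DMa had 12 and 16 counts in vehicle and 20 and 25 in NE, and H2-DMb1 had 14 and 14 in vehicle and 23 and 23 in NE. The NE libraries were higher for both, but the log2 fold changes of 0.49 ± 0.46 and 0.53 ± 0.46 were not called (edgeR adjusted p = 0.624 and 0.589). Their 95% intervals reach from -0.48 to 1.47 and from -0.44 to 1.49, so changes of either sign within those ranges remain possible. Of the windows of H2-DMb1, 13.7% recur in H2-DMb2.

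Cd1d1, which presents lipids to NKT cells, had 5 counts in all. H2-M10.4, H2-Bl and H2-M5 had 2 counts each and H2-M10.2, H2-Q1 and H2-Q10 had 1 each. There were 0 counts for H2-M2, H2-M10.1, H2-M10.3, H2-M10.5, H2-M10.6, H2-M11, H2-Q2 and H2-T3. H2-Ke6 belongs to the family by its symbol and position alone, since it encodes a hydroxysteroid dehydrogenase. It had 68 and 100 counts in vehicle and 82 and 92 in NE (log2 fold change -0.14 ± 0.25, edgeR adjusted p = 0.826), and its exons overlap the readthrough gene Gm20427 over 84.9% of their length.

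Around these genes, 7 lists of the same pathway held 69 tested genes, of which 1 rose and 0 fell, against 0.342% and 1.23% of all genes. At an unadjusted p under 0.05, edgeR had 12 of the 69, against 17.3% of all genes, which is near the same share. The gene that rose was Psme4, which encodes the proteasome activator PA200 and is not one of the interferon-induced subunits. It went from 180 and 187 CPM in vehicle to 220 and 228 in NE (log2 fold change 0.29 ± 0.07, edgeR adjusted p = 0.0439). DESeq2 and limma voom also called 1 gene higher and 0 lower. The call of Psme4 was lost without the first NE library (0.31) and without the second (0.26), where fewer genes were called over all genes. It was also lost under scaling by total counts (0.27, edgeR adjusted p = 0.0595) and with the length trend removed (0.35, adjusted p = 0.0543).

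Of the 11 genes of the immunoproteasome, its constitutive counterparts and activators, 11 had positive log2 fold changes (median 0.10, against -0.000115 over all genes), and 10 were not called. The interferon-inducible subunit genes Psmb8 (0.02 ± 0.07, edgeR adjusted p = 0.939) and Psmb9 (0.17 ± 0.12, adjusted p = 0.480) were among them. The part of the length trend in this median was not tested.

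Of 12 tested regulators 0 passed with edgeR, DESeq2 or limma voom, which had 2, 0 and 1 at an unadjusted p under 0.05. For 2 of the 12, DESeq2 gave no adjusted p. Rfx5, the X box factor that anchors Nlrc5 and Ciita, was found at 39.7 and 39.3 CPM in vehicle and 35.5 and 30.8 in NE (log2 fold change -0.25 ± 0.10, edgeR adjusted p = 0.202). The Y box factor gene Nfya stood at -0.17 ± 0.08 (adjusted p = 0.286). The interferon-response gene Irf1 was not called (-0.09 ± 0.08, adjusted p = 0.629). Of 11 interferon receptor, kinase and feedback genes the call count was 0 with all 3 tools. For 3 of the 11, DESeq2 gave no adjusted p. Each tool had 1 gene at an unadjusted p under 0.05. By edgeR it was the kinase gene Tyk2 (-0.36 ± 0.11, adjusted p = 0.102), and Ifngr2, a chain of the interferon-gamma receptor, stood at 0.10 ± 0.07 (adjusted p = 0.481).

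Among 12 genes of protein folding, glycan processing and translocation in the endoplasmic reticulum and of aminopeptidases 0 were called by any tool. At an unadjusted p under 0.05, edgeR and DESeq2 had 3 each, lower in NE. Limma voom had 5, of which 3 were lower and 2 higher. The median log2 fold change was 0.07, with 7 positive and 5 negative. The aminopeptidase gene Lnpep stood at -0.29 ± 0.08 (edgeR adjusted p = 0.0914) and the glucosidase gene Ganab at -0.21 ± 0.07 (adjusted p = 0.115). For 8 genes of class II peptide processing the counts were 0 called and 0 at an unadjusted p under 0.05 by each tool. DESeq2 left 1 of the 8 without an adjusted p. The thiol reductase gene Ifi30 (-0.16 ± 0.08, adjusted p = 0.337) and the cathepsin gene Ctsz (-0.10 ± 0.07, adjusted p = 0.471) had the smallest p there.

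Among 7 class I-like genes and NK receptor ligands 0 were called by any tool and each had 1 gene at an unadjusted p under 0.05. By edgeR it was Ulbp1, a ligand of the activating receptor NKG2D, with 61.1 and 59.2 CPM in vehicle and 50.4 and 45.7 in NE (log2 fold change -0.33 ± 0.09, edgeR adjusted p = 0.0671). Mr1, which presents vitamin B metabolites, stood at -0.25 ± 0.13 (adjusted p = 0.343). Of 8 tested co-stimulatory and checkpoint genes 0 were called by any tool, with 3 (edgeR and limma voom) or 1 (DESeq2) at an unadjusted p under 0.05. DESeq2 left 3 of the 8 without an adjusted p. Icam1, an adhesion ligand of T cells, had 85 and 69 counts in vehicle and 56 and 30 in NE (-1.005 ± 0.33, adjusted p = 0.132), and Cd80 stood at -0.28 ± 0.11 (adjusted p = 0.205).

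Control and marker genes were not called. Actb stood at -0.08 ± 0.08 (edgeR adjusted p = 0.644) and Gapdh at 0.06 ± 0.07 (adjusted p = 0.722). The leukocyte marker genes Cd14 (0.49 ± 0.16, adjusted p = 0.121) and Csf1r (0.80 ± 0.40, adjusted p = 0.327) were lowest in the first vehicle library, where Csf1r had 27 counts against 152, 144 and 212 in the others. The Club cell marker genes Ephx1 (-0.16 ± 0.07, adjusted p = 0.265) and Aldh1a1 (-0.14 ± 0.09, adjusted p = 0.406) were highest in that same library. The other tested marker of each list did not share this pattern. The leukocyte marker gene Cd68 (-0.48 ± 0.30, edgeR adjusted p = 0.427) was lowest in the first NE library. The Club cell marker gene Cbr2 (0.13 ± 0.41, adjusted p = 0.905) was highest there. Without that first vehicle library Nlrc5 stood at -0.56 and H2-Q6 at -0.57, in a fit with the lone vehicle library assumed to vary like the NE libraries. The part of these markers in the falls was not tested.

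**Figure D5:**
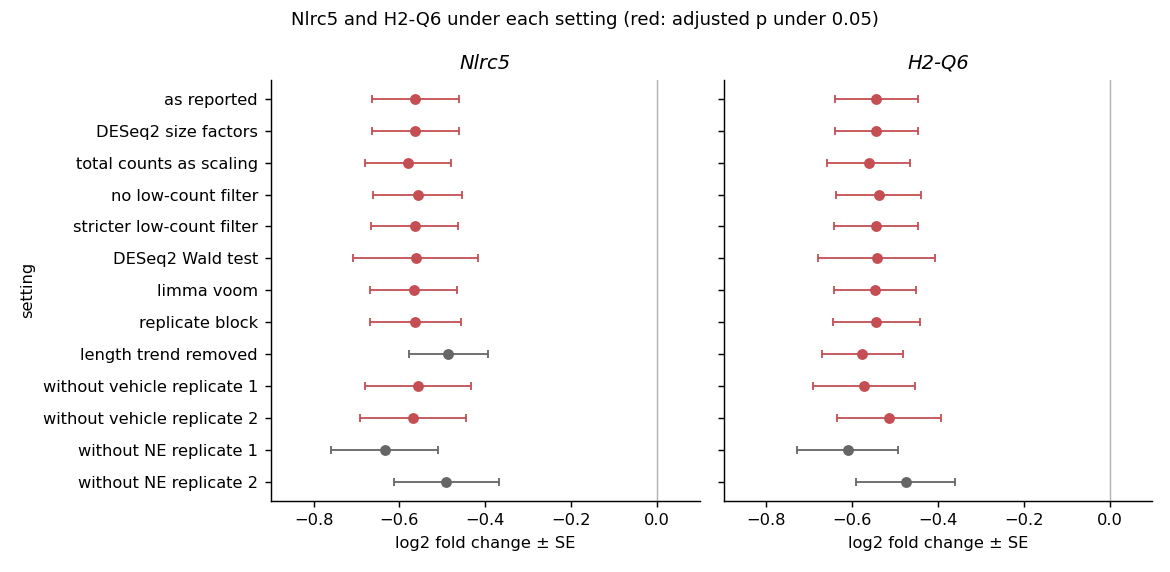
Log2 fold change of Nlrc5 (left) and H2-Q6 (right) under each setting, with bars of ± 1 SE; red points have an adjusted p under 0.05. Values run from -0.63 to -0.48 in these settings; the calls are lost without either NE library, and that of Nlrc5 also with the length trend removed.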

How the data were processed

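RNA sequencing libraries from 4 samples of C22 cells, 2 per group, were grouped by their titles, and table columns were matched to samples by the library descriptions. The authors deposited raw counts of reads for each gene, per the labels. The submitters' processing notes name the build GRCm39 (mm39). The sources used here do not give the aligner, counter, annotation release or strand setting, so a gene cannot be told apart from an antisense partner. Identifiers with no symbol (30 rows) held 0.000742% of the counts.

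Counts were tested with edgeR 4.0.16 (R 4.3.3), by the quasi-likelihood test, with TMM scaling and filterByExpr (minimum count 10, minimum total 15). Benjamini-Hochberg adjustment ran over all 11419 genes kept, and a call is an adjusted p under 0.05. SE was computed from the fold change and the F statistic. CPM values use TMM-scaled totals. Alternatives were other scalings and filters, DESeq2 1.42.0, limma 3.58.1 voom, the replicate number as a block, a length correction (loess of each library on exon length, 11399 genes) and each library left out.

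Exon lengths, overlaps and transcripts came from GENCODE M21 and promoters from RefSeq, both on the older build GRCm38, matched by identifier or symbol. Members and gene lists were chosen with earlier results of these data known. Every member that passed the filter is named with its values. Of each list, called genes or otherwise the 2 with the smallest p are named, with Irf1, Psmb8, Psmb9, Rfx5, Actb and Gapdh. A further gene of that rule is not reported here.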

Additional observations from a re-analysis of the deposited data

How the results depend on the processing

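Directions and calls of the members held in most settings. With 0 members called higher and 2 lower in the reported fit, the count lower stayed at 2 under both other scalings, both other filters, DESeq2, limma voom and the replicate block. It was 1 with the length trend removed and between 0 and 2 with 1 library left out, and the count higher was 0 in each setting run. Over all genes, 179 calls became 309 with no low-count filter, 75 with DESeq2, 320 with the replicate block, 25 with the length trend removed and 1 to 741 with 1 library left out. Of the pathway lists, 1 call became 0 with total counts as scaling or the length trend removed, 2 with the replicate block, and 0 to 7 with 1 library left out. The cause was not tested. The labels number the replicates but do not say whether equal numbers pair the samples. Deviations of same-numbered libraries had a correlation of -0.06 across genes, which cannot decide this with 2 libraries a group. The replicate block kept Nlrc5 (edgeR adjusted p = 0.00695) and H2-Q6 (0.00617) called.

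Signs of uncalled members near 0 turned in single settings. With the length trend removed B2m stood at -0.0165, H2-D1 at -0.0033 and H2-T22 at -0.0303, and with total counts as scaling H2-T22 at -0.0021. With 1 library left out H2-K1 ran from -0.0687 to 0.0047, H2-Ke6 from -0.39 to 0.17, H2-M1 from -0.83 to 0.54, H2-Q7 from -0.15 to 0.0231 and H2-T22 from -0.0206 to 0.0517. H2-Q6 kept a negative value in 13 of 13 alternatives, of which 1 was its sum with H2-Q7 (-0.31). In the others H2-Q6 alone ran from -0.61 to -0.48. Nlrc5 kept a negative value in 12 of 12 (-0.63 to -0.49). H2-Q4 ran from -0.30 to -0.23, with adjusted p-values from 0.0526 to 0.642. Total counts as scaling moved the median of all genes by -0.02. With 2 libraries a group, the 5 tested members with the fewest counts had SEs of 0.37 to 0.59.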
